A study of Mus musculus with 12 samples.

Results

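The genes described here build, crosslink or organise the extracellular matrix of connective tissue and skin, and were taken by symbol from a list of 47 genes. Of these, 46 were found among the 45777 genes of the deposited table, and all 46 passed the filter on low counts, which left 19740 genes. The symbol Thy1l matched no gene of the table and was not replaced by another. Expression was measured by RNA sequencing of whole pieces of mouse hindlimb, with 12 libraries in 3 groups of 4. In VtA the limb had lymphedema treated by lymph node transfer together with ABTAA, an antibody that binds angiopoietin-2 and activates the endothelial receptor Tie2. VLNT is the same model with the lymph node transfer and without ABTAA, and LE is lymphedema alone, so that the labels give lymphedema or its treatment in every group and no healthy limb. The labels name no strain, age, sex or time after surgery, and they do not say whether the 4 libraries of a group came from separate animals, so that p-values reflect only the spread among the libraries, and that spread may be technical.

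Lymphedema is known for fibrosis of the swollen skin, in which fibroblasts lay down fibrillar collagens. Chains of types I, III and V assemble into striated fibrils, which lysyl oxidases crosslink outside the cell. Type IV collagen and laminins form instead the thin sheet of the basement membrane under epithelium and around vessels and muscle fibres, and matricellular proteins such as tenascins and periostin are made mainly in tissue that is being remodelled.

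Libraries held 56.0 to 72.5 M counts, and levels are given as CPM, counts scaled to a TMM-adjusted library size. The libraries differed in their transcripts of skin and muscle markers. The labels do not say how much skin and muscle each piece of hindlimb held. The summed level of 21 keratinocyte markers was 74.5 to 11772 CPM in VtA, 17515 to 31202 CPM in VLNT and 44.9 to 41979 CPM in LE, and both lowest values belonged to single libraries, VtA1 and LE4. The 24 skeletal muscle markers summed to 202074 to 360422 CPM in VtA, 50156 to 236934 CPM in VLNT and 10563 to 391699 CPM in LE, with LE4 at the top and LE2 at the bottom. Fibroblast markers, 14 genes outside the matrix list, summed to 625 to 1495, 712 to 1331 and 498 to 1833 CPM in VtA, VLNT and LE, and ranges overlapped in all 3 groups. LE1 stood apart in its mitochondrially encoded transcripts, at 4798 CPM against 79213 CPM or more in every VLNT library. In whole tissue, fewer cells of a type and less RNA per cell cannot be told apart.

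Matrix genes were lower in VtA than in VLNT or LE for most members and in most libraries, with a spread between libraries so wide that no gene was called. The 46 genes took 0.718% ± 0.407 of the counts in VtA, 2.29% ± 1.25 in VLNT and 2.85% ± 2.93 in LE (SD, n = 4 each). The LE group spanned 0.233% in its lowest library to 7.03% in its highest, a range that held every VtA and VLNT library. LE3 had the highest level of the 12 libraries for 29 of the 46 genes and LE4 the lowest for 25. For ranks over the 12 libraries no share of all genes was computed. Within LE, LE3 was the highest library for 33 genes, against 15.96% of all genes tested. LE4 was the lowest of LE for 35 genes, against 41.3%, so that genes in general shared part of its low rank. Within VtA, VtA1 was the lowest library for 33 genes, against 41.7% of all genes tested, and within VLNT the lowest was VLNT4 for 35 genes, against 32.2%.

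**Figure D1:**
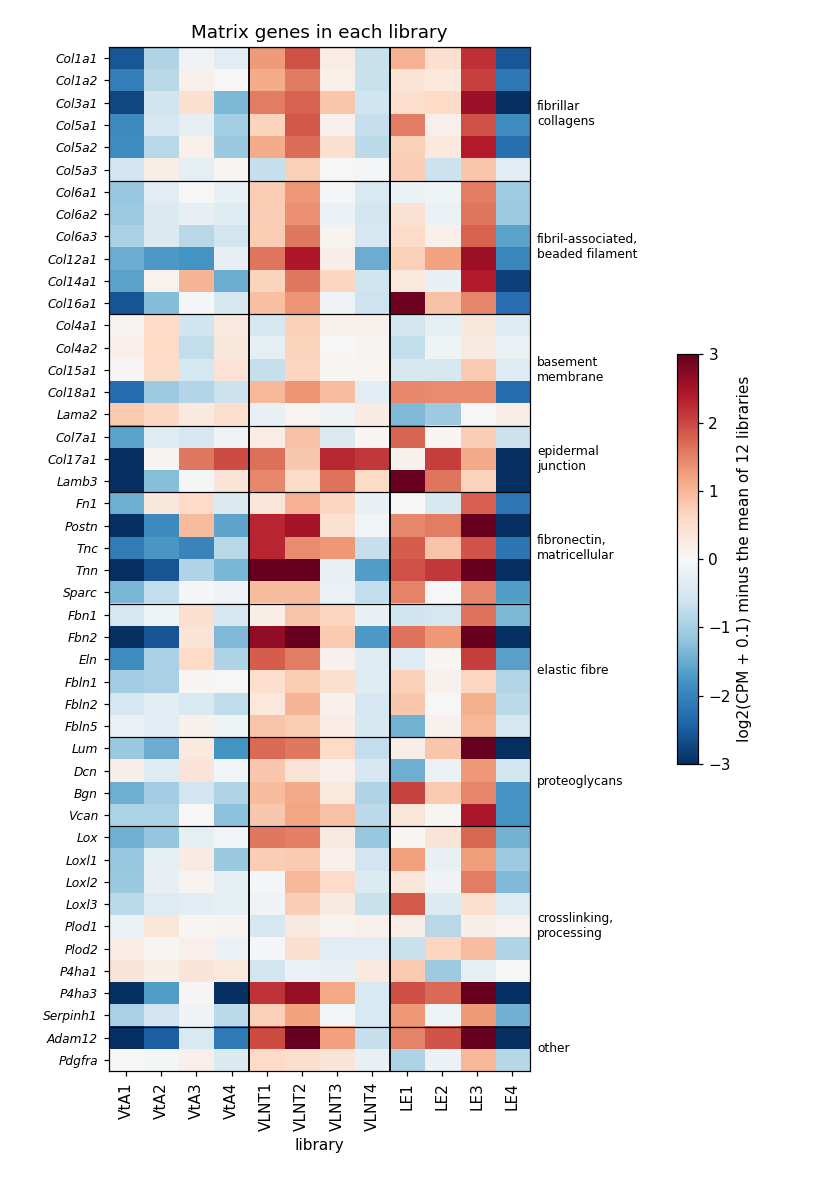
Level of each of the 46 matrix genes (rows, grouped by role) in each of the 12 libraries (columns), as log2(CPM + 0.1) minus the gene's mean over the 12 libraries; red is higher and blue lower, and the scale stops at 3 in each direction. LE3, VLNT1 and VLNT2 are red for most genes and LE4 and VtA1 blue. Rows that stay pale or run the other way include Col4a1, Col4a2, Col15a1 and Lama2, and also Col5a3, Plod1, Plod2 and P4ha1.

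The comparison of VtA with VLNT asks what ABTAA adds to the transfer. Of the 46 genes, 40 were lower in VtA and 6 higher, with a median log2 fold change of -0.97, while 53.3% of all 19740 genes were lower, with a median of -0.066. None of the 46 was called at an adjusted p under 0.05 by edgeR's quasi-likelihood test with Benjamini-Hochberg adjustment (smallest adjusted p = 0.653), nor was any gene of the table (0%). At an unadjusted p under 0.05, 8 members were lower and 0 higher, against 5.36% of all genes lower and 0.304% higher. The 4 libraries of each group did not overlap for 3 members that were lower (Col18a1, Lamb3 and Tnc) and 1 that was higher (Lama2), and 8.32% and 7.48% of all genes were separated in the same way, so that separated members were no more frequent than separated genes in general. DESeq2 called 1 member, Tnc, lower, beside 0.765% of all genes lower and 0.00507% higher. With sample weights, limma-voom called 9 members, all lower, beside 10% of all genes lower and 8.25% higher. In 34 genes the direction was lower, and in 1, Lama2, higher, under all 25 alternatives that were computed.

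Set against lymphedema alone, VtA had 39 lower and 7 higher members, with a median log2 fold change of -1.18 against -0.11 for all genes, of which 54.4% were lower. Again edgeR's quasi-likelihood test with Benjamini-Hochberg adjustment called no member (smallest adjusted p = 0.288) and no gene of the table (0%). At an unadjusted p under 0.05 it had 14 members lower and 1 higher, against 13.5% and 3.04% of all genes. Libraries of the 2 groups did not overlap for 0 members that were lower and 1 that was higher, Lama2, against 1.27% and 1.43% of all genes. DESeq2 called 6 members, all lower (Col16a1, Col18a1, Tnc, Tnn, Bgn and Adam12), beside 3.93% of all genes lower and 0.111% higher, and limma-voom with sample weights called 30, of which 28 were lower and 2 higher, Lama2 and P4ha1, beside 25.9% and 28% of all genes. In the edgeR test the count of calls turned on LE4, whose matrix genes lay at or below the VtA level. Without LE4 the same test called 23 members lower and 1 higher, beside 16.5% and 14.2% of all genes, and the median of all genes moved to -0.27. The 23 were Col1a1, Col5a1, Col5a2, Col6a3, Col7a1, Col12a1, Col16a1, Col18a1, Lamb3, Postn, Tnc, Tnn, Sparc, Fbn2, Fbln2, Lum, Bgn, Vcan, Loxl1, Loxl3, P4ha3, Serpinh1 and Adam12, and the 1 higher gene was Lama2. Leaving out VtA1 as well, the other library with almost no keratinocyte transcripts, left 7 lower members (Col16a1, Col18a1, Lamb3, Tnc, Tnn, Bgn and Adam12) and Lama2, beside 9.25% and 10.4% of all genes. Without LE1, LE4 and VtA1, a choice made after the data were seen, 8 members were called lower (Col12a1, Col18a1, Tnc, Tnn, Lum, Bgn, Vcan and Adam12) and 0 higher, beside 10.3% and 15.7%. Direction held under all 25 alternatives for 20 lower members and for Lama2. With the skeletal muscle markers as a covariate the median of the 46 was 0.028, with 22 members below 0 (0 called). In that fit the median of all genes was 0.13, with 0% called. The medians by role turned to 0.10 for fibrillar collagens, 0.48 for elastic fibre genes and 0.31 for proteoglycans. Without LE3, the library with the most matrix transcripts, the median of the 46 was -0.62.

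For VLNT against LE, which asks what the transfer adds to lymphedema, members were spread around 0. Of the 46 genes 26 were lower and 20 higher, with a median log2 fold change of -0.048, beside 48.7% of all genes lower and a median of 0.015. No member passed at an adjusted p under 0.05 by edgeR's quasi-likelihood test with Benjamini-Hochberg adjustment (0% of all genes; smallest adjusted p = 0.9999), and 0 of 46 had an unadjusted p under 0.05 (1.87% of all genes lower and 0.137% higher). For 0 members were the libraries of the 2 groups separated, against 0.177% of all genes lower and 0.223% higher. DESeq2 called 0 members as well, beside 0.00507% of all genes lower and 0% higher. By limma-voom with sample weights 0 members were called, beside 0.562% of all genes lower and 6.34% higher. The median of the 46 lay between -0.49 and 0.63 over the 25 alternatives, the top value coming without LE3. VtA enters 2 of the 3 comparisons and so do VLNT and LE, so that the comparisons are not independent of each other.

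**Figure D2:**
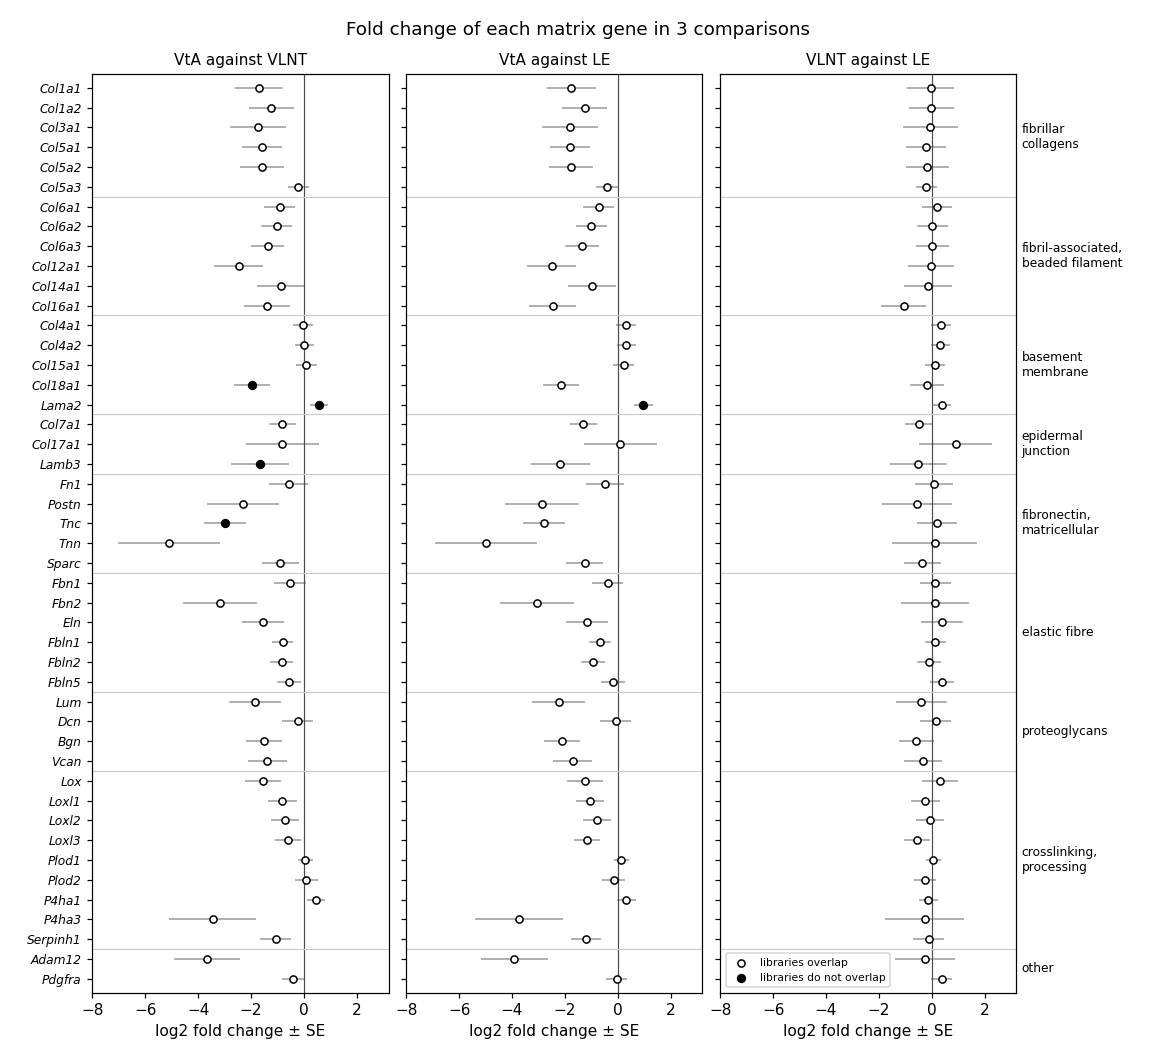
Log2 fold change with its standard error for each of the 46 genes in the 3 comparisons, from 1 edgeR fit of all 12 libraries; filled points mark genes whose 4 libraries do not overlap between the groups. Most points lie left of 0 in both VtA comparisons and around 0 in VLNT against LE, with the bars of many genes reaching or crossing 0.

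The fibrillar collagens had lower means in VtA, with the alpha 3 chain of type V closest to no difference. Their median log2 fold change over 6 genes was -1.59 against VLNT and -1.76 against LE, and all 6 were lower in each comparison. With the skeletal muscle covariate these medians were -0.68 and 0.10, beside -0.013 and 0.13 for all genes. Col3a1, the chain of type III collagen, had the highest mean TPM of the 46 genes and measured 351, 1550.2, 3283 and 915 CPM in VtA1 to VtA4, 6751, 7982, 4183 and 1554 CPM in VLNT1 to VLNT4 and 3351, 3553, 14063 and 276 CPM in LE1 to LE4. VtA3 was above VLNT4 and close to LE1 and LE2, so the groups overlapped (log2 fold change of VtA over VLNT -1.75 ± 1.06 SE). Col1a2, the alpha 2 chain of type I collagen, measured 366, 868, 1722 and 1524 CPM in VtA1 to VtA4, 3348, 4565, 1709 and 964 CPM in VLNT1 to VLNT4 and 2046, 1928, 6347 and 349 CPM in LE1 to LE4. It overlapped between VtA and both other groups, and its log2 fold change over VLNT was -1.24 ± 0.85. Its partner Col1a1, which was singled out after its values were seen, averaged 702 ± 387 CPM in VtA, 2301 ± 1606 in VLNT and 2369.8 ± 2126 in LE (SD, n = 4), with a log2 fold change of -1.71 ± 0.91 over VLNT. Col5a1, a chain of the type V collagen that starts fibrils, measured 47.5, 125, 147 and 88.01 CPM in VtA1 to VtA4, 280.3, 647, 194 and 110.3 CPM in VLNT1 to VLNT4 and 518, 197, 673 and 48.2 CPM in LE1 to LE4. Only LE4 of the LE libraries reached down to the VtA values. Its log2 fold change was -1.59 ± 0.76 against VLNT and -1.82 ± 0.77 against LE (adjusted p = 0.294 by edgeR's quasi-likelihood test with Benjamini-Hochberg adjustment). Col5a3, the alpha 3 chain, measured 57.9, 97.3, 71.7 and 88.6 CPM in VtA1 to VtA4, 53.1, 142, 86.8 and 82.3 CPM in VLNT1 to VLNT4 and 144, 54.4, 152 and 69.2 CPM in LE1 to LE4. These values overlapped throughout, and the log2 fold change of VLNT over LE was -0.20 ± 0.41, turning to 0.023 without LE3. Col5a2 averaged 125 ± 74.6 CPM in VtA, 376 ± 229 in VLNT and 424 ± 443 in LE.

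Collagens that sit on or beside the fibrils were lower in VtA like the fibrillar ones, with a smaller median. Among them Col12a1 had a larger fold change than any fibrillar collagen. Over the 6 genes the median log2 fold change was -1.204 against VLNT and -1.18 against LE, and again all 6 were lower in VtA in each comparison. Col12a1, a fibril-associated collagen of tendon and loaded tissue, measured 25.4, 21.7, 20.7 and 60.8 CPM in VtA1 to VtA4, 219, 386, 81.8 and 25.5 CPM in VLNT1 to VLNT4 and 118, 165, 423 and 18.4 CPM in LE1 to LE4. VtA1 to VtA3 lay at about the level of VLNT4 and LE4, and VtA4 was above both. The log2 fold change of VtA was -2.47 ± 0.93 over VLNT, with an adjusted p of 0.653 by edgeR's quasi-likelihood test with Benjamini-Hochberg adjustment. Col16a1, another fibril-associated collagen, measured 9.82, 24.0, 57.3 and 42.6 CPM in VtA1 to VtA4, 112, 149, 53.8 and 39.0 CPM in VLNT1 to VLNT4 and 449, 111, 164 and 12.2 CPM in LE1 to LE4. LE1 alone was far above the rest, and the log2 fold change was -2.46 ± 0.89 for VtA over LE and -1.06 ± 0.85 for VLNT over LE. Col6a1 and Col6a2, chains of the type VI collagen that forms beaded filaments around cells, moved together across libraries. Col6a1 measured 109, 190.1, 239 and 204 CPM in VtA1 to VtA4, 405, 589, 231 and 174 CPM in VLNT1 to VLNT4 and 208, 217, 689 and 115 CPM in LE1 to LE4, and Col6a2 105, 164, 189 and 174 CPM in VtA1 to VtA4, 373, 575, 193 and 151 CPM in VLNT1 to VLNT4 and 304, 194, 674 and 104 CPM in LE1 to LE4. Log2 fold changes over VLNT were -0.92 ± 0.58 for Col6a1 and -1.03 ± 0.59 for Col6a2. Col6a3 averaged 128 ± 22.2 CPM in VtA, 334 ± 208 in VLNT and 328 ± 271 in LE, and Col14a1, which binds fibrils of type I, averaged 66.1 ± 55.9, 119.8 ± 68.1 and 131 ± 161 CPM in VtA, VLNT and LE.

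The group of fibronectin and the matricellular proteins had large fold changes in Tnc, Tnn and Postn and a smaller one in Fn1. Tnc encodes tenascin-C and Tnn tenascin-N (also called tenascin-W), large glycoproteins that modulate cell adhesion, and Postn encodes periostin, which binds collagen and is made by fibroblasts in repair. For these 3 genes a window of 300 bases is shown because the genes have the largest log2 fold changes of their group over VLNT. Each window holds 250 bases before and 50 after a start, from the RefSeq table on GRCm38.p6, read on the gene's strand. The TATA box motif TATAAA, the CCAAT motif and the GC box motif GGGCGG are in capitals on either strand. For Tnc and Postn the table lists 2 windows and the second is shown. The annotated genes reach further upstream than the starts used for these windows. Postn begins at 54359267, before its window, and on the minus strand Tnc reaches 64047015 and Tnn 160153692. Motif positions below are counted from the start used for the window. The Tnc window is chr4:64046887-64047186 on the minus strand, the Postn window chr3:54360857-54361156 on the plus strand and the Tnn window chr1:160153526-160153825 on the minus strand.
Tnc: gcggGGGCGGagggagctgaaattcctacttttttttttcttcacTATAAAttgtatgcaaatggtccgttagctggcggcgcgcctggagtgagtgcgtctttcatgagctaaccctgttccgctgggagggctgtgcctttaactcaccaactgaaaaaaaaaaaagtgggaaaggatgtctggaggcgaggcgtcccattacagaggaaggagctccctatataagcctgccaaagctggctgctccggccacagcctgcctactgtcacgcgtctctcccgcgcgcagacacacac
Postn: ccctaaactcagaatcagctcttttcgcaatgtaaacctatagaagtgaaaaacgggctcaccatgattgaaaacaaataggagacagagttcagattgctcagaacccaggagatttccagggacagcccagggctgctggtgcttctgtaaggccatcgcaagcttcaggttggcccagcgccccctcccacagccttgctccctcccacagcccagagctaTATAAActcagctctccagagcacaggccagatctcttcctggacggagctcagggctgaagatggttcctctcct
Tnn: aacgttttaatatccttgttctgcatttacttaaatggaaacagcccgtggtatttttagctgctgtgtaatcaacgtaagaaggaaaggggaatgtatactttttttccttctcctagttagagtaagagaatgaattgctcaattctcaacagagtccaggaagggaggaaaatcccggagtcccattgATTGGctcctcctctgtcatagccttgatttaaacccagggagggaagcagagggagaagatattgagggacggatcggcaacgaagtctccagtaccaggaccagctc
The Postn window held TATAAA 26 bases before the start, the Tnc window TATAAA at 205 and GGGCGG at 246 bases before it, and the Tnn window CCAAT 59 bases before it on the opposite strand. Only exact matches were marked. The similar stretch tatataag in the Tnc window, nearer the start than its TATAAA, was therefore not counted. Of all 32851 RefSeq windows of this length, the motif TATAAA was in 13.6%, the CCAAT motif in 37.4% and the motif GGGCGG in 35.7%. No exact motif was common to the 3 genes, and each is frequent elsewhere.

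Tnc had the smallest p of its group of genes in both VtA comparisons. It measured 20.2, 25.95, 21.9 and 49.4 CPM in VtA1 to VtA4, 425, 234, 217 and 53.6 CPM in VLNT1 to VLNT4 and 308, 158, 322 and 18.9 CPM in LE1 to LE4. All VtA libraries were below all VLNT libraries, VtA4 and VLNT4 by a narrow gap, and LE4 was below every VtA library. The log2 fold change of VtA was -2.98 ± 0.81 over VLNT (adjusted p = 0.653) and -2.78 ± 0.80 over LE (adjusted p = 0.288) by edgeR's quasi-likelihood test with Benjamini-Hochberg adjustment. Without LE4 the difference from LE was -3.198, with an adjusted p of 0.00759 by the same edgeR test, and with the skeletal muscle markers as a covariate it was -1.002 (adjusted p = 0.737, edgeR). Postn measured 14.7, 70.2, 516 and 88.1 CPM in VtA1 to VtA4, 1292, 1484, 365 and 249.7 CPM in VLNT1 to VLNT4 and 719, 768, 3504 and 7.46 CPM in LE1 to LE4. VtA3 stood above the other VtA libraries and above VLNT3 and VLNT4, and the log2 fold change over VLNT was -2.30 ± 1.37. Tnn, which was singled out after its values were seen, had counts of 0 in VtA1 and LE4. Its levels were 0, 0.345, 1.34 and 0.944 CPM in VtA1 to VtA4, 23.7, 64.6, 2.197 and 0.740 CPM in VLNT1 to VLNT4 and 10.1, 11.6, 62.4 and 0 CPM in LE1 to LE4. A count of 0 allows up to 0.0755 CPM in VtA1 and 0.0634 CPM in LE4, for counting error only. VLNT4 was within the VtA range, and the fitted log2 fold change, -5.10 ± 1.93 over VLNT and -4.98 ± 1.92 over LE, had a wide error.

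Sparc, a collagen-binding glycoprotein, measured 407, 626, 1006 and 984 CPM in VtA1 to VtA4, 2034, 2033, 913 and 634 CPM in VLNT1 to VLNT4 and 2944, 1064, 2889.8 and 331 CPM in LE1 to LE4. Its log2 fold change was -0.89 ± 0.70 for VtA over VLNT and -0.36 ± 0.70 for VLNT over LE, and groups overlapped in each case. Fn1, fibronectin, averaged 369 ± 195 CPM in VtA, 552 ± 191 in VLNT and 517 ± 550.1 in LE. Tnc relative to Fn1, as a ratio of TPM, was 0.0515 to 0.240 in VtA, 0.206 to 1.02 in VLNT and 0.284 to 0.984 in LE, so that all VtA ratios were below all LE ratios and VtA overlapped VLNT. The 5 genes together had a median log2 fold change of -2.30 against VLNT and -2.78 against LE, and all 5 were lower in each.

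**Figure D3:**
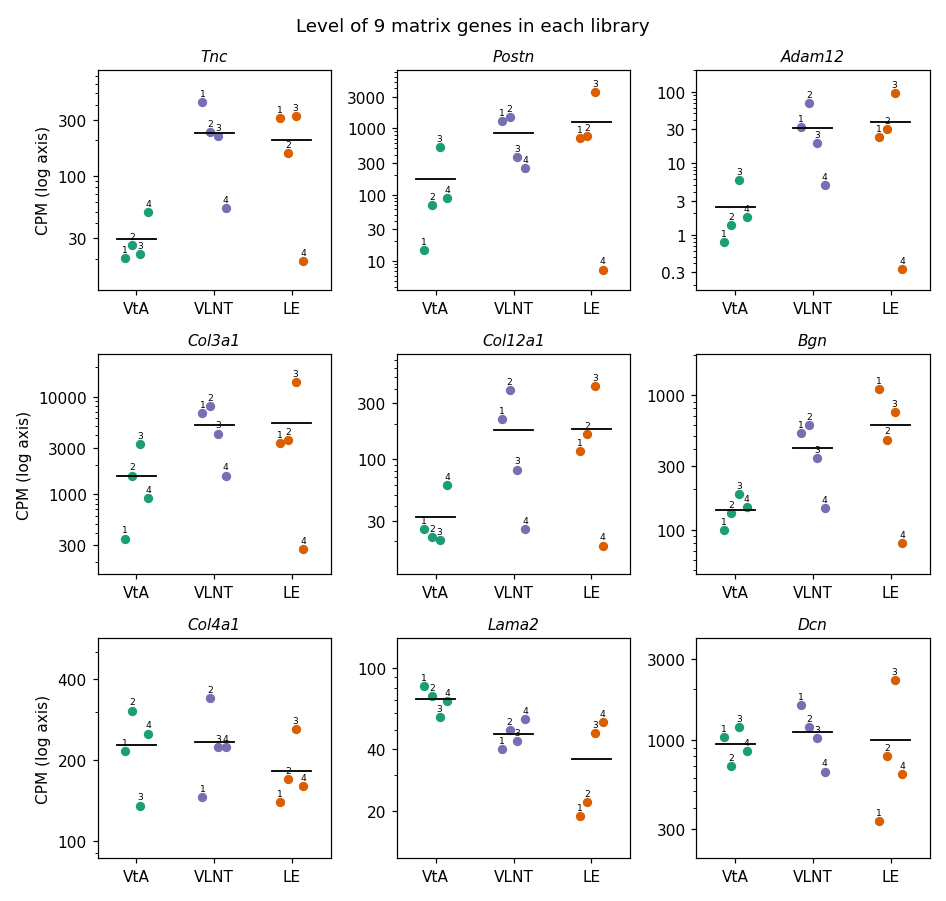
CPM of 9 matrix genes in each library on log axes, with libraries numbered 1 to 4, VtA left of VLNT and LE, and bars at the group mean. In the first 6 panels LE4 lies far below the other LE libraries and below every VtA library, whereas in Col4a1 and Dcn the groups overlap and in Lama2 every VtA library is above every VLNT and LE library on this scale.

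Proteoglycans of the small leucine-rich family, which coat collagen fibrils, did not move as one. Dcn, decorin, measured 1034, 703, 1195 and 863 CPM in VtA1 to VtA4, 1604, 1194, 1027 and 652 CPM in VLNT1 to VLNT4 and 333, 809, 2253 and 632 CPM in LE1 to LE4. Its groups overlapped widely (log2 fold change of VtA over VLNT -0.24 ± 0.58). Lum, lumican, which sets fibril spacing, measured 77.1, 59.5, 204 and 48.6 CPM in VtA1 to VtA4, 543, 499, 254 and 101 CPM in VLNT1 to VLNT4 and 193, 296, 1331 and 20.3 CPM in LE1 to LE4. Its log2 fold change over VLNT was -1.84 ± 0.98, with VtA3 above VLNT4 and LE4 below all VtA libraries. The TPM ratio of Lum to Dcn was 0.0507 to 0.154 in VtA, 0.139 to 0.376 in VLNT and 0.0288 to 0.533 in LE. Bgn, biglycan, measured 99.2, 133, 184 and 147 CPM in VtA1 to VtA4, 525, 601, 343 and 146 CPM in VLNT1 to VLNT4 and 1114, 469.6, 756 and 80.0 CPM in LE1 to LE4. VLNT4 lay within the VtA range and LE4 below it, and the log2 fold change of VtA was -1.52 ± 0.67 over VLNT and -2.101 ± 0.69 over LE, and of VLNT over LE -0.58 ± 0.66. Bgn was lower in VLNT than in LE under all 25 alternatives, although by less than the spread. Vcan, the large proteoglycan versican, averaged 16.6 ± 7.01 CPM in VtA, 43.3 ± 19.6 in VLNT and 54.2 ± 62.5 in LE. The 4 genes had a median of -1.45 against VLNT and -1.91 against LE, the second moving to -0.68 without LE3.

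Elastic fibre genes were lower in VtA by a smaller median, -0.82 against VLNT and -0.81 against LE over 6 genes. Fbln2, a fibulin that joins elastic fibres and basement membranes, measured 116, 132, 120.5 and 96.9 CPM in VtA1 to VtA4, 203, 334, 179 and 115 CPM in VLNT1 to VLNT4 and 290.2, 163, 346 and 95.5 CPM in LE1 to LE4. Eln, tropoelastin, measured 22.9, 42.9, 129 and 44.9 CPM in VtA1 to VtA4, 298, 246, 92.4 and 64.7 CPM in VLNT1 to VLNT4 and 64.4, 88.6, 356 and 27.4 CPM in LE1 to LE4. VtA3 alone of the VtA libraries reached the VLNT range in Eln. Log2 fold changes over VLNT were -0.84 ± 0.44 for Fbln2 and -1.55 ± 0.81 for Eln. Fbn2, a fibrillin made mostly in the embryo and in repair, measured 0.252, 0.479, 4.40 and 1.27 CPM in VtA1 to VtA4, 21.8, 29.2, 5.89 and 0.940 CPM in VLNT1 to VLNT4 and 10.68, 8.39, 34.4 and 0.0845 CPM in LE1 to LE4. Its lowest library, LE4, held 4 counts, and VLNT4 and VtA4 were alike, so that the log2 fold changes of -3.17 ± 1.40 over VLNT and -3.06 ± 1.40 over LE carried a large error. Fbln5, which binds tropoelastin, had the smallest p of its group of genes in VLNT against LE. It measured 23.9, 21.6, 29.8 and 24.6 CPM in VtA1 to VtA4, 49.2, 46.2, 32.2 and 19.7 CPM in VLNT1 to VLNT4 and 10.2, 30.2, 54.3 and 19.3 CPM in LE1 to LE4, with LE1 the lowest of all, and its log2 fold change of 0.37 ± 0.45 turned to -0.22 without LE1, LE4 and VtA1. Fbn1, the main fibrillin of adult tissue, averaged 173 ± 61.1 CPM in VtA, 249.6 ± 79.1 in VLNT and 227 ± 235 in LE, and Fbln1 averaged 20.3 ± 8.13, 35.6 ± 10.4 and 32.5 ± 13.5 CPM in VtA, VLNT and LE.

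Among the enzymes and chaperones of collagen, Serpinh1, the collagen chaperone HSP47, measured 79.1, 104, 145 and 90.4 CPM in VtA1 to VtA4, 256, 359.6, 152 and 114 CPM in VLNT1 to VLNT4 and 385, 143, 376 and 57.2 CPM in LE1 to LE4. Lox, lysyl oxidase, measured 21.1, 25.6, 47.4 and 54.0 CPM in VtA1 to VtA4, 173, 164, 69.8 and 26.1 CPM in VLNT1 to VLNT4 and 60.4, 75.3, 191 and 21.3 CPM in LE1 to LE4. In both genes VLNT4 and LE4 lay inside or near the VtA range, and log2 fold changes over VLNT were -1.07 ± 0.57 for Serpinh1 and -1.55 ± 0.69 for Lox. Loxl3, a lysyl oxidase relative, measured 6.75, 8.93, 9.17 and 9.56 CPM in VtA1 to VtA4, 10.96, 19.6, 14.1 and 7.37 CPM in VLNT1 to VLNT4 and 42.4, 8.83, 16.5 and 8.98 CPM in LE1 to LE4, with LE1 above the others. Its log2 fold change was -1.16 ± 0.50 for VtA over LE and -0.56 ± 0.49 for VLNT over LE, and the second became 0.19 without LE1. Loxl1 averaged 27.7 ± 13.2 CPM in VtA, 48.9 ± 18.7 in VLNT and 57.7 ± 38.0 in LE, and Loxl2 42.0 ± 12.9, 68.4 ± 29.2 and 72.5 ± 56.3 CPM in VtA, VLNT and LE.

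The prolyl and lysyl hydroxylases modify collagen chains inside the cell, and their values differed from gene to gene. P4ha1, a catalytic subunit of prolyl 4-hydroxylase, averaged 55.4 ± 3.71 CPM in VtA, 40.5 ± 10.2 in VLNT and 44.4 ± 23.5 in LE; its log2 fold change of VtA over VLNT was 0.45 ± 0.35. P4ha3, another catalytic subunit, had counts of 0 in VtA1, VtA4 and LE4. Its levels were 0, 0.268, 1.11 and 0 CPM in VtA1 to VtA4, 5.18, 7.05, 2.51 and 0.755 CPM in VLNT1 to VLNT4 and 4.37, 3.73, 10.6 and 0 CPM in LE1 to LE4, and the fitted log2 fold change over VLNT was -3.45 ± 1.64. The lysyl hydroxylase Plod1 averaged 44.8 ± 7.14 CPM in VtA, 43.1 ± 9.18 in VLNT and 41.2 ± 11.8 in LE, with a log2 fold change over VLNT of 0.057 ± 0.28, and Plod2 averaged 4.61 ± 0.549, 4.32 ± 1.28 and 5.14 ± 3.08 CPM in VtA, VLNT and LE. P4ha1, P4ha3 and Plod1 were singled out after their values were seen. Over the 9 genes of crosslinking and processing, 6 were lower and 3 higher against VLNT, with a median of -0.70, and 7 were lower and 2 higher against LE, with a median of -1.06.

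Basement membrane genes gave no common direction, with medians of 0.007 against VLNT, 0.31 against LE and 0.31 for VLNT over LE over 5 genes, of which Col18a1 was lower in VtA and Lama2 higher. On log2(TPM + 1) the median against VLNT was -0.52, beside -0.30 for all genes. Col4a1 and Col4a2 encode the ubiquitous chains of type IV collagen and lie head to head on chromosome 8. Measured from the starts used for their windows they overlap by 22 bases. The annotated gene of Col4a1 reaches further, to 11312889, and that of Col4a2 begins at 11312805, so that the genes overlap by more. Their windows are shown because they share 78 bases and the genes moved together: chr8:11312777-11313076 on the minus strand for Col4a1 and chr8:11312555-11312854 on the plus strand for Col4a2, in GRCm38.p6 from RefSeq, with the same motifs in capitals.
Col4a1: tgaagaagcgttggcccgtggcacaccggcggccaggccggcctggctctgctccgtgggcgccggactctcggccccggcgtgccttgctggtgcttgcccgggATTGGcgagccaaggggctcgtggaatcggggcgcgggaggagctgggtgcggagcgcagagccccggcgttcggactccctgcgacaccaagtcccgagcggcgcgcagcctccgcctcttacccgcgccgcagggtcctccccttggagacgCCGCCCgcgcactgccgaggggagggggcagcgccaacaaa
Col4a2: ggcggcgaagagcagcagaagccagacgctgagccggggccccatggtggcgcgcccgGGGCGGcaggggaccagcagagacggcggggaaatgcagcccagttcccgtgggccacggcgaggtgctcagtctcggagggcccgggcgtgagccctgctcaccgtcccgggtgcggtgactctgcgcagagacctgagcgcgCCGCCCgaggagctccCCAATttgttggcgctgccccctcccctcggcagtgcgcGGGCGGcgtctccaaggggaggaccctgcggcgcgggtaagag
The Col4a1 window held CCAAT 145 bases before the start and GGGCGG at 10 bases after it, both on the opposite strand. In the Col4a2 window GGGCGG stood 192 and 48 bases before and 8 bases after the start, and CCAAT 32 bases before it; a motif in the shared stretch appears in both windows, on opposite strands. GC content was 74.0% and 73.7%, against a median of 52.7% over all windows.

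Col4a1 measured 215, 304, 135 and 249.96 CPM in VtA1 to VtA4, 145, 337, 223 and 222 CPM in VLNT1 to VLNT4 and 139, 170.0, 261 and 159 CPM in LE1 to LE4. Col4a2 measured 172, 232, 91.8 and 195 CPM in VtA1 to VtA4, 127, 244, 152 and 164 CPM in VLNT1 to VLNT4 and 92.1, 142, 184 and 135 CPM in LE1 to LE4. The groups overlapped for both genes, and log2 fold changes over VLNT were -0.037 ± 0.37 for Col4a1 and 0.007 ± 0.36 for Col4a2, each smaller than its SE. The TPM ratio of Col4a1 to Col4a2 stayed between 1.11 and 1.47 over the 12 libraries, LE4 and VtA1 included. The ratio of Col6a1 to Col6a2 ran from 0.656 to 1.23, and that of Col1a1 to Col1a2 from 0.471 to 1.03. Type I against type IV collagen was far less fixed: the TPM ratio of Col1a1 to Col4a1 was 1.02 to 8.88 in VtA, 3.66 to 21.5 in VLNT and 1.38 to 22.5 in LE. Those ranges overlapped, and the 2 lowest of the 12 ratios were those of VtA1 and LE4.

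**Figure D4:**
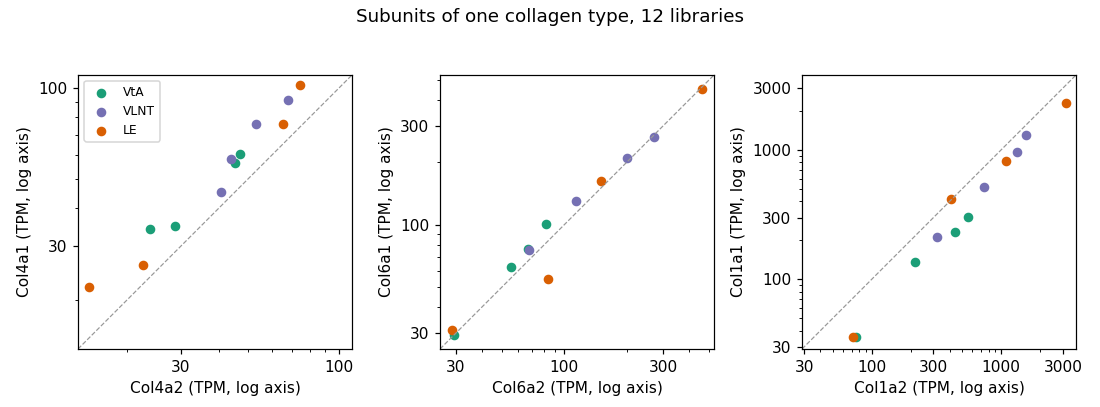
TPM of one chain against another chain of the same collagen type in each of the 12 libraries, on log axes with equal scales; the dashed line marks equal TPM. Col4a1 lies above Col4a2 in every library by 1.11 to 1.47 times, and Col1a1 follows Col1a2 over a wider range of levels, mostly below the line.

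Lama2, the laminin alpha chain of the muscle basement membrane, had a higher CPM in VtA. It measured 81.2, 73.0, 57.7 and 68.8 CPM in VtA1 to VtA4, 40.2, 49.7, 43.8 and 56.1 CPM in VLNT1 to VLNT4 and 19.0, 22.1, 47.9 and 54.6 CPM in LE1 to LE4. In CPM every VtA library was above every VLNT and every LE library. In TPM, which is not TMM-scaled, the groups overlapped, at 8.97 to 10.6 in VtA, 8.52 to 10.1 in VLNT and 2.02 to 12.8 in LE, and the log2 fold change over VLNT on log2(TPM + 1) was 0.054. The log2 fold change of VtA was 0.56 ± 0.34 over VLNT (adjusted p = 0.653) and 0.97 ± 0.34 over LE (adjusted p = 0.288) by edgeR's quasi-likelihood test with Benjamini-Hochberg adjustment, and 0.40 ± 0.34 for VLNT over LE. Without LE4 the same test gave 1.21 over LE (adjusted p = 0.0222), and with the skeletal muscle markers as a covariate 0.56 (adjusted p = 0.730). All 24 skeletal muscle markers were higher in VtA than in VLNT, with a median log2 fold change of 1.09, and how much of the Lama2 difference goes with them was measured only by that covariate. Col18a1, whose C-terminal fragment is endostatin, measured 10.2, 23.8, 27.5 and 32.3 CPM in VtA1 to VtA4, 102, 128, 97.3 and 40.8 CPM in VLNT1 to VLNT4 and 137, 135, 136 and 10.2 CPM in LE1 to LE4. VtA was below VLNT in all libraries, and LE4 alone of the LE libraries was at the VtA level. Its log2 fold change was -1.97 ± 0.67 over VLNT and -2.16 ± 0.68 over LE. Col15a1, a basement membrane collagen of muscle and vessels, averaged 64.3 ± 19.6 CPM in VtA, 60.4 ± 22.01 in VLNT and 55.4 ± 27.9 in LE.

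Of the genes of the junction between epidermis and dermis, Col17a1 and Lamb3 were near 0 in VtA1 and LE4, the libraries with almost no keratinocyte transcripts. Col17a1, a transmembrane collagen of basal keratinocytes, measured 0.504, 124, 352 and 459 CPM in VtA1 to VtA4, 369, 206, 560.1 and 512 CPM in VLNT1 to VLNT4 and 128, 496, 257 and 1.4998 CPM in LE1 to LE4. In VtA1 and LE4 the keratinocyte markers summed to 74.5 and 44.9 CPM, while LE1 had the highest sum, 41979 CPM, and VtA4 a sum of 9097 CPM beside more Col17a1. The log2 fold change of Col17a1 over VLNT was -0.82 ± 1.39. Lamb3, a chain of the anchoring laminin of skin, measured 1.49, 10.65, 25.6 and 34.0 CPM in VtA1 to VtA4, 71.3, 38.1, 81.0 and 39.5 CPM in VLNT1 to VLNT4 and 203, 79.5, 42.4 and 1.06 CPM in LE1 to LE4. VtA libraries were all below VLNT libraries, with a log2 fold change of -1.68 ± 1.10. Col7a1, which forms anchoring fibrils, measured 33.3, 77.8, 71.6 and 94.8 CPM in VtA1 to VtA4, 119, 189.6, 75.9 and 106 CPM in VLNT1 to VLNT4 and 341, 107, 171 and 65.8 CPM in LE1 to LE4. Its log2 fold change was -0.82 ± 0.51 over VLNT, -1.30 ± 0.52 over LE and -0.48 ± 0.51 for VLNT over LE. The 21 keratinocyte markers were all lower in VtA than in VLNT (median -1.65), and their part in these differences was not tested beyond the covariate fit, in which Col17a1 stood at 0.68 over VLNT.

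Among the 2 remaining genes, Adam12 was far lower in VtA than Pdgfra. Adam12, a metalloprotease of activated mesenchymal cells, measured 0.806, 1.38, 5.84 and 1.79 CPM in VtA1 to VtA4, 31.6, 68.6, 19.3 and 4.96 CPM in VLNT1 to VLNT4 and 23.1, 30.3, 95.3 and 0.338 CPM in LE1 to LE4. VtA3 was just above VLNT4, and LE4 was the lowest of all. The log2 fold change of VtA was -3.66 ± 1.25 over VLNT and -3.92 ± 1.26 over LE. Pdgfra, a growth factor receptor carried by fibroblasts, measured 52.1, 50.3, 58.0 and 39.0 CPM in VtA1 to VtA4, 79.5, 75.2, 68.4 and 44.5 CPM in VLNT1 to VLNT4 and 27.3, 46.4, 104 and 29.0 CPM in LE1 to LE4. Its groups overlapped, with log2 fold changes of -0.42 ± 0.41 for VtA over VLNT and 0.37 ± 0.41 for VLNT over LE. The TPM ratio of Col1a1 to Pdgfra was 4.15 to 25.97 in VtA, 18.2 to 63.8 in VLNT and 7.53 to 97.4 in LE, and those ranges overlapped too. Fibroblast markers outside the list were lower in VtA than in VLNT for 9 of 14 genes, with a median log2 fold change of -0.20.

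Per length, the order of levels over the 12 libraries was led by Col3a1 (mean 1503 TPM), Dcn (1048 TPM), Sparc (1045 TPM), Col1a2 (829 TPM) and Col1a1 (607 TPM). At the low end stood P4ha3 (2.65 TPM), Plod2 (2.24 TPM) and Fbn2 (1.97 TPM). Col1a1, Col1a2 and Col3a1 together took 20.6% to 47.3% of the counts of the 46 genes in VtA, 39.3% to 54.3% in VLNT and 23.9% to 54.7% in LE.

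Matrix genes outside the list were measured for comparison in 6 lists of 137 genes, chosen, like the 46, with earlier results of these data known. In VtA against VLNT 91 of 137 were lower, with a median log2 fold change of -0.26, beside 53.3% of all genes lower and a median of -0.066. None was called by edgeR's quasi-likelihood test (0 of 137, and 0% of all genes). At an unadjusted p under 0.05 by that test, 10 were lower and 1 higher, against 5.36% and 0.304% of all genes. The 26 other collagens gave no common direction, with 12 lower, 14 higher and a median of 0.077. Col8a1, a network collagen of vessels, averaged 10.4 ± 3.71 CPM in VtA and 27.1 ± 30.4 in VLNT, and Col23a1, a transmembrane collagen, 6.70 ± 2.87 and 16.3 ± 5.49. The 14 genes of matrix turnover were lower in 11 cases with a median of -1.32 against VLNT and -1.26 against LE. Mmp13, a collagenase, averaged 1.05 ± 1.31 CPM in VtA, 17.8 ± 14.6 in VLNT and 29.8 ± 29.5 in LE, a log2 fold change over VLNT of -4.08 ± 1.41, and Adamts4, an aggrecanase, 2.49 ± 0.665, 15.3 ± 8.40 and 18.1 ± 13.9 CPM in VtA, VLNT and LE (-2.62 ± 0.82). Mmp2, the gelatinase with the highest level of that list, averaged 199.8 ± 114 CPM in VtA and 357 ± 109 in VLNT.

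Of 38 other matrix glycoproteins and proteoglycans 28 were lower against VLNT (median -0.40). Spp1, osteopontin, averaged 5.10 ± 3.10 CPM in VtA, 97.7 ± 95.1 in VLNT and 126 ± 138 in LE, and Ccn5, a matricellular protein, 3.87 ± 2.56, 16.03 ± 13.8 and 12.8 ± 8.48 CPM in VtA, VLNT and LE. The 24 other processing genes were lower in 16 cases (median -0.40), among them Ppib, a prolyl isomerase of collagen folding, at 48.1 ± 21.0 CPM in VtA and 114 ± 59.8 in VLNT. Adamts3, a procollagen N-proteinase, went the other way at 2.86 ± 1.58 and 1.31 ± 0.238 CPM in VtA and VLNT. The 20 other basement membrane genes had 13 lower and 7 higher members (median -0.17). Against LE they had 9 lower and 11 higher (median 0.21). Sparcl1, with the highest TPM of that list, was higher in VtA, at 216 ± 35.7 CPM against 127 ± 35.7 in VLNT. Lama3, an alpha chain of laminin in skin, averaged 14.8 ± 11.8 CPM in VtA and 65.0 ± 25.9 CPM in VLNT. Of 15 collagen receptors, 11 were lower with a median of -0.31. Itgb1, the common beta chain, averaged 233 ± 15.03 CPM in VtA, 234 ± 27.3 in VLNT and 198 ± 53.2 in LE.

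Tissue marker transcripts differed between the libraries beside the matrix genes. Fibrillar collagens, as the mean log2(CPM + 0.1) of 6 genes, stood at 6.97, 8.34, 8.95 and 8.29 in VtA1 to VtA4, 9.76, 10.51, 9.23 and 8.35 in VLNT1 to VLNT4 and 9.75, 9.13, 10.9 and 6.89 in LE1 to LE4. The skeletal muscle markers summed to 302925, 360422, 202074 and 272691 CPM in VtA1 to VtA4, 50156, 150100.0, 105449 and 236934 CPM in VLNT1 to VLNT4 and 121822, 10563, 35874 and 391699 CPM in LE1 to LE4. VLNT4, the VLNT library with the most muscle transcripts (236934 CPM), had the lowest collagen level of its group, and so had LE4 (391699 CPM) among the LE libraries. In VtA, VtA3 had the fewest muscle transcripts (202074 CPM) and the highest collagen level (8.95). Not all libraries followed such an inverse order. VtA2 had the most muscle transcripts of VtA and a higher collagen level than VtA1. VLNT2 had more of both than VLNT1, and LE2 had the fewest muscle transcripts and less collagen than LE1. What sets either order was not tested. With the mean log2 CPM of the skeletal muscle markers as a covariate, the median of the 46 genes was -0.60 for VtA over VLNT and 0.028 for VtA over LE. All genes had medians of -0.013 and 0.13 in that fit. With keratinocyte markers as the covariate the medians of the 46 were -0.36 and -0.71, beside 0.053 and 0.051 for all genes. With fibroblast markers they were -0.46 and -0.57, beside -0.004 and -0.055. Macrophage markers, 11 genes, were all lower in VtA than in VLNT and LE (medians -1.18 and -1.54), with sums of 181 to 723 CPM in VtA, 390.1 to 1181 CPM in VLNT and 124 to 2569 CPM in LE; their part in the result was not tested. All 13 mitochondrially encoded transcripts were higher in VtA than in VLNT and in LE (medians 1.06 and 1.24), and against VLNT so were all 10 endothelial and all 8 Schwann cell markers (medians 0.42 and 0.53). Tenocyte markers were higher in VtA than in VLNT for all 7 genes (median 1.18), with sums of 75.8 to 363 CPM in VtA and 52.3 to 80.1 CPM in VLNT.

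**Figure D5:**
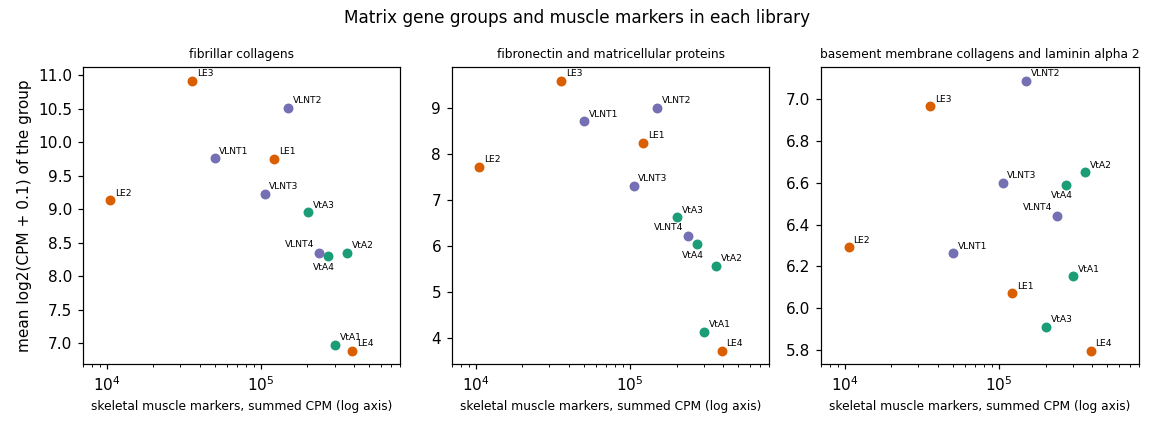
Mean log2(CPM + 0.1) of 3 groups of matrix genes against the summed CPM of 24 skeletal muscle markers (log axis) in each of the 12 libraries; the vertical scales differ between panels. LE4, the 4 VtA libraries and VLNT4 are the 6 lowest for fibrillar collagens and matricellular genes, and basement membrane genes lie between 5.79 in LE4 and 7.09 in VLNT2.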

How the data were processed

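Whole mouse hindlimb tissue was sequenced as polyadenylated RNA with a stranded kit, per the labels' protocols. The submitters' processing notes name HISAT2 2.1.0, StringTie 2.1.3b, Trimmomatic and bcl2fastq 2.20.0 as tools and mm10 and GRCh38 as builds, with no role for either build. Not given in the sources used here are the annotation, the strand setting and the treatment of multimapped reads. A table deposited by the authors gives, per the file headers, a raw read count, an FPKM and a TPM for each gene and library. The FPKM columns of the authors were not used. TPM, as deposited by the authors, served for levels between genes and 1 pair of alternatives. Coordinates come from RefSeq on GRCm38.p6, in which 45679 gene IDs were found; 20 of the 46 genes overlap another annotated gene, so some of their reads may be shared, and antisense overlaps could not be told apart without the strand setting. Promoter windows were found for 31 of the 46.

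Counts were tested with edgeR 4.0.16 (quasi-likelihood, TMM, default filter on low counts; R 4.3.3), 12 libraries in 1 fit, with Benjamini-Hochberg adjustment over 19740 genes; the threshold was an adjusted p of 0.05. All tests were 2-sided. SEs come from the test statistic and group errors are SDs of n = 4. Alternatives used DESeq2 1.42.0, limma 3.58.1 (voom with sample weights; trend on log2(TPM + 1) and log2(TPM + 0.1)), other scaling, no filter, 2 groups alone, a replicate block, left-out libraries, and the mean log2 CPM (prior count 2) of keratinocyte, skeletal muscle or fibroblast markers as a covariate. The fit was tested on simulated data. No pair of libraries was identical. The members, their groups by role, the further lists and the tests were chosen with earlier results of these data known. Values in every library are given for the 2 genes of each role with the highest TPM and the gene with the smallest p in each comparison; other genes are given by group means, or are marked in the text as singled out. Depth was 56.0 to 72.5 M counts a library, and a count of 0 allows 3 counts, for counting error only.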

Additional observations from a re-analysis of the deposited data

Results flagged for a closer look

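For 7 of 138 combinations of a gene and a group, 1 library lay far from the other 3, with a gap beyond Dixon's 95% critical value; chance gives this in about 1 of 20 groups. In VtA, Col12a1 was at 60.8 CPM in VtA4 and 20.7 to 25.4 CPM in the other libraries. Postn was at 516 CPM in VtA3 and 14.7 to 88.1 CPM in the others, and Vcan at 26.9 CPM in VtA3 against 11.4 to 14.0 CPM. In LE, Col18a1 was at 10.2 CPM in LE4 while the other 3 libraries were within 135 to 137 CPM. LE3 stood out for Col15a1, at 97.1 CPM against 40.5 to 43.2 CPM, and for Fbn1, at 577 CPM against 73.3 to 132 CPM. Plod1 was low in LE2, at 23.6 CPM against 45.3 to 48.5 CPM. None of the 7 was in VLNT.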

How the results depend on the processing

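Under 25 alternatives, 799 of 825 values of calls and medians stayed within the spread or within 1.5 times. For medians that spread was the SD between replicates, 1.157 for the 46 in VLNT against LE. A move there from -0.048 to 0.63 without LE3, with a change of sign, therefore counted as stayed. Some alternatives left out a library of the group not compared and could change little, so that the share does not measure how firm a direction is. Called members were 1 (DESeq2) and 9 (limma-voom) for VtA against VLNT, and 6 (DESeq2), 30 (limma-voom), 8 (without LE4 and VtA1) and 8 (without LE1, LE4 and VtA1, chosen after seeing the data) for VtA against LE, where leaving out single libraries gave 0 to 24. Beside them, 0.77% and 18.3% of all genes were called for VtA against VLNT. For VtA against LE the shares of all genes, in the same order, were 4.04%, 53.9%, 19.7% and 26.01%. The 24 members, called without LE4, stood beside 30.8% of all genes. With muscle markers as a covariate the medians for VtA against LE were 0.13 for all genes and 0.028 for the 46. By role they were 0.10 for fibrillar collagens, -0.24 for matricellular, 0.48 for elastic fibre and 0.31 for proteoglycan genes. Processing genes had -0.27 and Adam12 and Pdgfra 0.12, and Fbn2 turned to 0.49. Against VLNT the muscle covariate gave -0.68 for fibrillar, -0.84 for matricellular and -0.54 for proteoglycan genes, and the keratinocyte covariate -0.57, -0.62 and -0.65 for the same, with -1.17 for Adam12 and Pdgfra; the fibroblast covariate gave -0.69 for proteoglycans. TPM moved the basement membrane median for VtA over VLNT to -0.52 (pseudocount 1) or -0.53 (0.1) and the epidermal junction median to -2.74 (0.1), while it moved the median of all genes to -0.30 and -0.50. In VLNT against LE it moved that median to 0.14 and 0.32. Leaving out single libraries gave a proteoglycan median for VtA over LE of -2.30 to -0.68. For these results the cause was not tested.

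Over all 46 genes, direction held under all 25 alternatives for 34 lower and 1 higher in VtA over VLNT. In VtA over LE it held for 20 lower and 1 higher. In VLNT over LE it held for only 2 lower (Bgn and Col16a1) and 4 higher (Col17a1, Col4a1, Col4a2 and Lama2). Sign changes given here and above cover only members picked by rule or singled out, so other members that changed sign are not named. For VtA over VLNT, Col4a2 took -0.52, -0.53, -0.033, -0.03, -0.02, -0.01, -0.03, -0.01, -0.011 under TPM with pseudocount 1 and 0.1, the fibroblast, keratinocyte and muscle covariates, no filter, the 2 groups alone, without LE4 and VtA1, and without LE1, LE4 and VtA1. Col4a1 was 0.016 by limma-voom and 0.005 with the replicate block. Plod1 was -0.41 and -0.43, and P4ha1 -0.039 and -0.042, with TPM at pseudocount 1 and 0.1. With the muscle covariate Plod1 was -0.15, Col17a1 0.23, Fn1 0.009 and Dcn 0.16; with the keratinocyte covariate Col17a1 was 0.68 and Fn1 0.25, and with the fibroblast covariate Dcn was 0.088. For VLNT over LE, TPM gave 0.038 and 0.045 for Col5a3 and 0.026 and 0.028 for Sparc, and the muscle covariate 0.087 for Sparc. By limma-voom Fbln5 was -0.24, Loxl3 0.054 and Pdgfra -0.13, and without LE1, LE4 and VtA1 they were -0.22, 0.015 and -0.19. Leaving out single libraries gave -0.50 to 0.023 for Col5a3, -0.77 to 0.094 for Col7a1 and -0.82 to 0.19 for Loxl3 in VLNT over LE, and -0.23 to 0.20 for Col4a1, -0.19 to 0.22 for Col4a2 and -0.086 to 0.15 for Plod1 in VtA over VLNT.

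The replicate numbers were not taken as pairs. Correlations of same-numbered libraries ran from -0.43 to 0.56, 3 of 12 were above 0.1, and not every library correlated best with its own number. Libraries with different numbers ran from -0.75 (LE4 with VtA3) to 0.69 (LE4 with VtA1). With such differences between libraries, this check cannot exclude pairing. With a replicate block 0 members were called in each comparison, and the median of the 46 was -1.01 for VtA over VLNT, -0.86 for VtA over LE and 0.23 for VLNT over LE. With 4 libraries a group and this spread, fold changes of low genes such as Tnn, P4ha3 and Fbn2 are limited by libraries with few counts or 0.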
